A study of Homo sapiens with 6 samples.

Results

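The 10 genes described here were DDIT4, the 3 sestrins SESN1, SESN2 and SESN3, the tuberous sclerosis genes TSC1 and TSC2, RHEB, MTOR, RPTOR and DEPTOR. They were taken by symbol from the deposited table of gene expression, 10 of 38637 genes. The genes had been chosen with the difference between DMSO and pladienolide B already known, so that difference is given for them as a description, with no p-value. The samples were OVCAR8 cells, an established human ovarian carcinoma line, and polyadenylated RNA was sequenced. One group received DMSO, the vehicle, and the other received 2 nM pladienolide B, a small molecule that binds the splicing factor SF3B1, both for 72 h, with 3 samples each. No genotype or other treatment separated the groups, a single cell line was used, and the sources used here do not say whether the 3 samples were separate cultures. If they were not, p-values measure only the spread between these samples, which may be technical.

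mTORC1 is a protein kinase complex on the surface of the lysosome that promotes protein and lipid synthesis and holds back autophagy when amino acids, growth factors and energy are plentiful. The kinase is encoded by MTOR, and RPTOR encodes the scaffold that brings in its substrates. The small GTPase RHEB switches the kinase on, and the TSC complex, in which TSC2 is the GTPase-activating protein and TSC1 its stabilising partner, switches RHEB off. DDIT4, also called REDD1, restrains mTORC1 through the TSC complex and is a classical target of hypoxia, glucocorticoids and the stress factor ATF4. The sestrins restrain mTORC1 by binding GATOR2, and SESN2 is also a leucine sensor. SESN1 is known as a p53 target, SESN2 as a target of p53 and ATF4, and SESN3 as a FOXO target. DEPTOR binds mTOR and inhibits it.

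Because DDIT4 had the most negative difference between pladienolide B and DMSO and SESN2 the sestrin that varied most, the bases before their starts are shown, from RefSeq on GRCh38.p14. RefSeq promoter entries matched 9 of the 10 genes. The entries of MTOR, chr1:11262502-11262801, and TSC1, chr9:132944567-132944866, lie inside the spans that the deposited table gives. Those spans are chr1:11106535-11273497 and chr9:132891349-132945269 on the minus strand. For MTOR and TSC1 the bases before the start of the span were therefore not searched. For DDIT4 the stretch is the plus strand of chr10:72273674-72273923, which ends at the base before the gene. Capitals mark the letters ACGTG or GCGTG, the core of a hypoxia response element, searched on both strands.
DDIT4: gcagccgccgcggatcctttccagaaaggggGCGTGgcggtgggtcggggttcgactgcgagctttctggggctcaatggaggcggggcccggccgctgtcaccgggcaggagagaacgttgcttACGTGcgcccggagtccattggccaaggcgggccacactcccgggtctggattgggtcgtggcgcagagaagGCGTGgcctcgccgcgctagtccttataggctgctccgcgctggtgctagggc
SESN2: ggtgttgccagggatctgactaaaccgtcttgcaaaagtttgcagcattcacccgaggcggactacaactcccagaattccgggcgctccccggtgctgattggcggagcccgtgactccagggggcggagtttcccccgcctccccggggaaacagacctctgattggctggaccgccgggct
The DDIT4 stretch held 3 matches, starting 219, 125 and 53 bases before the gene, and 7.76% of the 35116 promoters of this length in RefSeq held 3 or more. The SESN2 stretch, the plus strand of chr1:28259268-28259451, held none, whereas 43.2% of all promoters held at least 1 in 250 bases. Both stretches held 2 matches to CCAAT on either strand, a motif present in 32.0% of promoters. Neither held TGATGNAA, the composite site of ATF4 and C/EBP, nor GTAAACA, a FOXO site, which were present in 3.14% and 2.98% of promoters. Among the RefSeq entries of the 9 genes, TGATGNAA was found once, in TSC2, where it overlapped the palindrome CACGTG that also accounts for the 2 hypoxia core matches in that entry. That 28-base stretch, the plus strand of chr16:2047863-2047890, is shown with both motifs in capitals. The motifs start 114 bases before the RefSeq start but inside the span that the deposited table gives for TSC2.
TSC2: ggccccgtCACGTGATGCAAggatcgcc
The overlapping pair of motifs was found in 8 of the 35116 promoters, 0.0228%. These are matches of letters and not measurements of binding.

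Across the 6 samples, between 22621338 and 26130882 reads were assigned to genes. Values are reads adjusted by the authors to a common library size, called adjusted reads below, and differences are given as the log2 of pladienolide B minus DMSO on log2(adjusted reads + 1) with the standard error (SE) of limma, a linear model fitted to all 16178 genes with enough reads. This scale makes the differences of low genes smaller. Of the epithelial and ovarian markers, KRT7, KRT8, KRT18, PAX8, MSLN and EPCAM were abundant in every sample, whereas KRT19, CDH1, WT1 and MUC16 were at or below 41.6 adjusted reads. PTPRC, CD3E and LYZ, which mark immune cells, were at or below 2.07, and the endothelial CDH5 and stromal DCN at or below 4.24, while CD68 and COL1A1 were above 1000. In bulk samples, fewer cells of a type and less RNA per cell cannot be told apart.

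The second DMSO sample stood apart from the other two at DDIT4 and SESN2 themselves. On the log2 scale its deviation from the mean of the other DMSO samples was -1.27 for DDIT4 and -1.19 for SESN2, the fourth and sixth lowest of the 12080 genes with a mean of at least 100 adjusted reads. The lowest was CHAC1 at -1.73 and the second lowest SLC7A11 at -1.36, both known ATF4 targets. The highest were the heat shock genes HSPA1A at 1.36 and HSPA1B at 1.17, and HIF1A, which encodes the oxygen-regulated subunit of HIF-1, was at 0.59. Over all genes this sample was only slightly further from the other DMSO samples, with root mean square log2 differences of 0.336 and 0.331 against 0.302 between those 2. What set it apart was not tested, and values that moved by over 1.5 times when it was left out are given both ways.

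DDIT4 was lower in every treated sample than in every DMSO sample. Its adjusted reads were 5104, 2095 and 4982 in DMSO and 556, 534 and 649 in pladienolide B. The highest treated sample was below the lowest DMSO sample, and the other DMSO samples were further above. The means were 4061 ± 1703 (SD, n = 3) and 580 ± 61.2 (SD, n = 3), so the treated mean was 14.3% of that in DMSO. The log2 difference was -2.70 (SE 0.22), the most negative of all 16178 genes tested. Without the second DMSO sample it was -3.12 (SE 0.065), and the treated mean was 11.5% of the mean of the other DMSO samples. Against the second DMSO sample by itself it was 27.7%. No other gene in the table overlaps DDIT4, which occupies chr10:72273924-72276036 on the plus strand and has 3 exons in its canonical transcript.

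DDIT4L, also called REDD2, is the paralog of DDIT4 and also restrains mTORC1. It had 31.0, 26.2 and 38.0 adjusted reads in DMSO and 73.9, 89.1 and 45.1 in pladienolide B. It rose by 1.06 on the log2 scale (SE 0.25, limma, Benjamini-Hochberg adjusted p = 0.0023), and by 0.94 without the second DMSO sample. All treated samples were above all DMSO samples, with the third treated sample closest to them. DDIT4 was 164, 79.9 and 131 times DDIT4L in adjusted reads in DMSO and 7.52, 6.0 and 14.4 times in pladienolide B. DDIT4 therefore remained the more abundant of the pair in every sample.

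SESN2 was lower in pladienolide B than in 2 of the 3 DMSO samples and higher than in the second DMSO sample. Its adjusted reads were 1798, 781 and 1759 in DMSO and 913, 986 and 867 in pladienolide B. The second DMSO sample lay below all treated samples, so the groups overlap. The means were 1446 ± 577 and 922 ± 59.9 (SD, n = 3 each), a log2 difference of -0.55 (SE 0.20). It was -0.95 (SE 0.058) without the second DMSO sample, -0.36 without the third and -0.35 without the first. The treated mean was 51.8% of the mean of the first and the third DMSO samples and 118% of the second, so the direction of this difference depends on which DMSO samples it is taken against. SESN2 spans chr1:28259452-28282491 on the plus strand, with no overlapping gene in the table.

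SESN3 and SESN1 were higher on average in pladienolide B. SESN3 had 228, 257 and 265 adjusted reads in DMSO and 323, 294 and 306 in pladienolide B, with no overlap between groups and a log2 difference of 0.30 (SE 0.096). It was 0.32 without the second DMSO sample. SESN1 had 95.0, 113 and 86.7 in DMSO and 137, 98.7 and 120 in pladienolide B. These groups overlap, since the second DMSO sample was above the second treated one, and the log2 difference was 0.27 (SE 0.16). SESN2 was 18.9, 6.92 and 20.3 times SESN1 in DMSO and 6.65, 9.99 and 7.21 times in pladienolide B. These ratios are of adjusted reads and not per length. ARMC2, on the opposite strand, overlaps SESN1 and had 34.3 to 43.5 adjusted reads, and whether reads were counted by strand is not given in the sources used here.

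TSC2 was the other gene of the 10 with a difference above 2-fold. Its adjusted reads were 2442, 2351 and 2408 in DMSO and 1077, 1121 and 1194 in pladienolide B, far apart relative to the spread within each group. The treated mean was 47.1% of the DMSO mean, and the log2 difference was -1.09 (SE 0.052), or -1.10 without the second DMSO sample. TSC2 occupies chr16:2047804-2089491 on the plus strand with 42 exons in the canonical transcript. At its ends it overlaps NTHL1 by 31 bases and PKD1 by 784 bases, both on the minus strand. NTHL1, which encodes a DNA glycosylase, was at -0.18 (SE 0.084, limma adjusted p = 0.09) and PKD1, which encodes polycystin-1, at -0.10 (SE 0.063, limma adjusted p = 0.21). Neither passed the threshold of 0.05.

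TSC1 was slightly higher, with 2103, 1755 and 2099 adjusted reads in DMSO and 2267, 2307 and 2201 in pladienolide B. The second DMSO sample was again the lowest, the groups did not overlap, and the log2 difference was 0.19 (SE 0.062), or 0.10 (SE 0.043) without that sample. The ratio of TSC2 to TSC1 reads was 1.16, 1.34 and 1.15 in DMSO and 0.475, 0.486 and 0.542 in pladienolide B. TSC2 thus had more reads than TSC1 in every DMSO sample and fewer in every treated sample. TBC1D7, the third subunit of the TSC complex, had 414, 398 and 370 adjusted reads in DMSO and 501, 476 and 464 in pladienolide B and rose by 0.29 (SE 0.078, limma adjusted p = 0.0062).

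**Figure D1:**
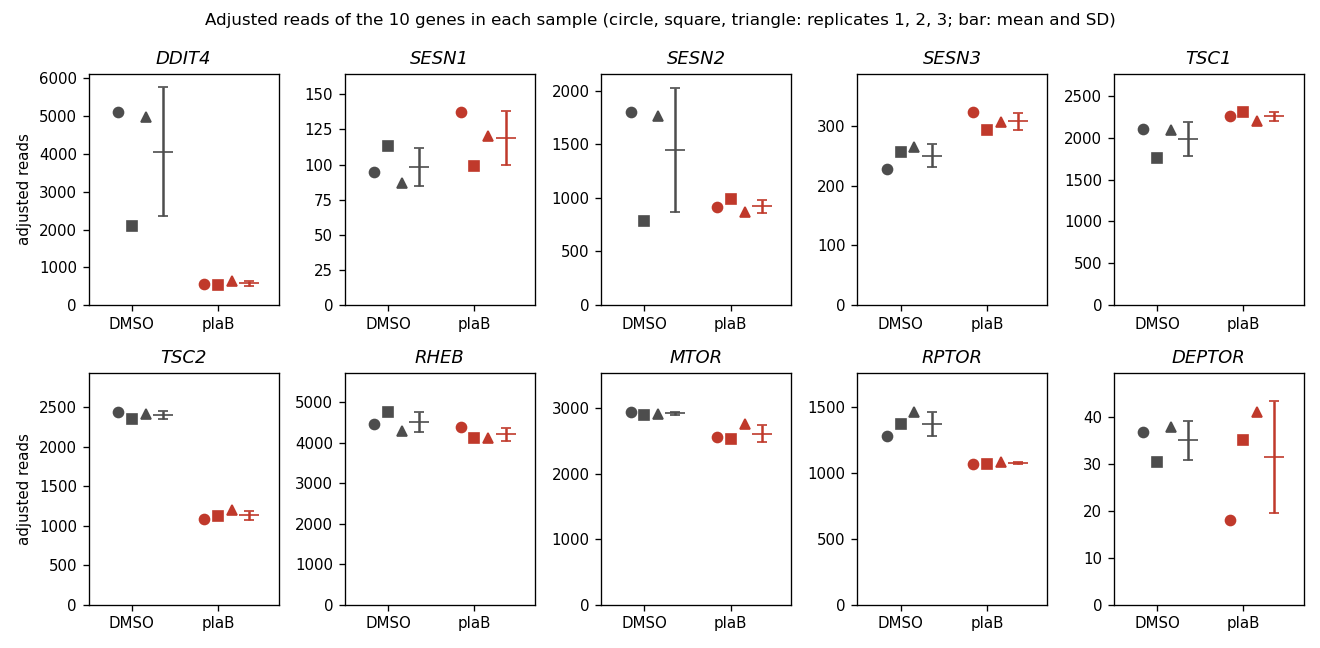
Adjusted reads (vertical axes from 0) of the 10 genes in the 3 DMSO (grey) and 3 pladienolide B (plaB, red) samples, where circles, squares and triangles are replicates 1, 2 and 3 and bars give the mean ± SD. The second DMSO sample (square) is 2095 for DDIT4 and 781 for SESN2, well under the other DMSO samples, whereas the groups are narrow and apart for TSC2.

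RHEB, the direct activator, had 4456, 4772 and 4288 adjusted reads in DMSO and 4403, 4117 and 4110 in pladienolide B. The groups overlap and the log2 difference was -0.10 (SE 0.048), and -0.05 without the second DMSO sample. RHEB has processed pseudogenes of near-identical sequence, so its counts are uncertain to the extent that reads were shared with them. Its paralog RHEBL1, with 424, 431 and 441 adjusted reads in DMSO and 297, 375 and 333 in pladienolide B, fell by 0.37 on the log2 scale (SE 0.091, limma adjusted p = 0.0027).

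In the kinase complex itself, MTOR had 2946, 2900 and 2906 adjusted reads in DMSO and 2560, 2521 and 2751 in pladienolide B. No treated sample reached the DMSO range, the third treated sample was the closest to DMSO, and the log2 difference was -0.16 (SE 0.046). RPTOR had 1280, 1374 and 1465 in DMSO and 1065, 1070 and 1084 in pladienolide B. The treated samples of RPTOR were closer to each other than the DMSO samples were, and the log2 difference was -0.35 (SE 0.057). DEPTOR was low throughout, with 36.8, 30.3 and 37.9 in DMSO and 18.0, 35.1 and 41.1 in pladienolide B. Its groups overlap, and its difference of -0.22 (SE 0.29) became 0.12 when the first treated sample was left out.

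The other subunits moved in both directions. MLST8, shared by mTORC1 and mTORC2, had 1195, 1142 and 1041 adjusted reads in DMSO and 1183, 1132 and 1255 in pladienolide B, and its log2 difference of 0.08 (SE 0.062) did not pass the threshold (limma adjusted p = 0.31). AKT1S1, which encodes the mTORC1 inhibitor PRAS40, fell by 0.31 (SE 0.061, limma adjusted p = 5.3e-04). RICTOR, the scaffold of mTORC2, rose by 0.17 (SE 0.049, limma adjusted p = 0.0072); it lies outside the rule for naming genes and was picked after its values were seen, as the counterpart of RPTOR. The ratio of RPTOR to RICTOR reads was 0.597, 0.690 and 0.708 in DMSO and 0.449, 0.447 and 0.486 in pladienolide B, without overlap. Of the mTORC2 subunits, PRR5L fell by 0.95 (SE 0.13, limma adjusted p = 1.1e-05) and PRR5 by 0.62 (SE 0.12, limma adjusted p = 5.6e-04). TTI1 and TTI2, which encode cochaperone subunits needed to assemble mTOR, rose by 0.39 and 0.35.

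All 10 genes passed the filter on low values. By limma's adjusted p under 0.05, 7 of them were called, 2 higher (SESN3 and TSC1) and 5 lower (DDIT4, TSC2, SESN2, RPTOR and MTOR), and the background over all genes was 47.6%, with 22.4% higher and 25.2% lower. The groups did not overlap for 6 of the 10, against 55.3% of all genes tested. DDIT4 and TSC2 were also past 2-fold, which 3.93% of all genes were. The median log2 difference of the 10 was -0.19, beside 0.00 for all genes tested. Since the genes were chosen on this contrast, these counts are a description. The count also varied with the analysis. SESN2 was not called by DESeq2, without a variance trend, or when any one sample other than the second DMSO sample was left out, with log2 differences between -0.60 and -0.35 in those omissions. TSC1 was not called without a variance trend, nor without the second DMSO sample or the first or the second treated sample, with log2 differences of 0.10, 0.19 and 0.17 in those omissions. SESN3 was not called without the first DMSO or the first treated sample, with log2 differences of 0.23 and 0.26. MTOR was not called without a variance trend.

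Levels of different genes were compared per kilobase of the canonical GENCODE transcript. In DMSO, DDIT4 was highest at 2328 ± 977 adjusted reads per kilobase (SD, n = 3), next to RHEB at 2202 ± 120, and the ranges of this pair overlap. SESN2 at 418 ± 167 and TSC2 at 374 ± 7.21 followed, with overlapping ranges, and then MTOR at 335 ± 2.84. The range of SESN2, 225.5 to 519.5, also took in that of MTOR and overlapped that of TSC1. TSC1 at 231 ± 23.2 and RPTOR at 201 ± 13.5 also overlapped in range. SESN3 at 26.2 ± 2.01, SESN1 at 17.3 ± 2.36, DEPTOR at 13.6 ± 1.60 and DDIT4L at 12.2 ± 2.27 were lowest, and the last 2 overlapped. In pladienolide B, RHEB was highest at 2058 ± 81.7 and DDIT4 next at 333 ± 35.1, followed by MTOR at 299 ± 14.1, SESN2 at 266 ± 17.3, TSC1 at 263 ± 6.22 and TSC2 at 176 ± 9.18. Among these the ranges of DDIT4 and MTOR overlap, as do those of SESN2 and TSC1. The order depends on which length is used. Per kilobase of all annotated exons of a gene, TSC2 was at 117 in DMSO, below RPTOR at 133 and level with TSC1 at 113.

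**Figure D2:**
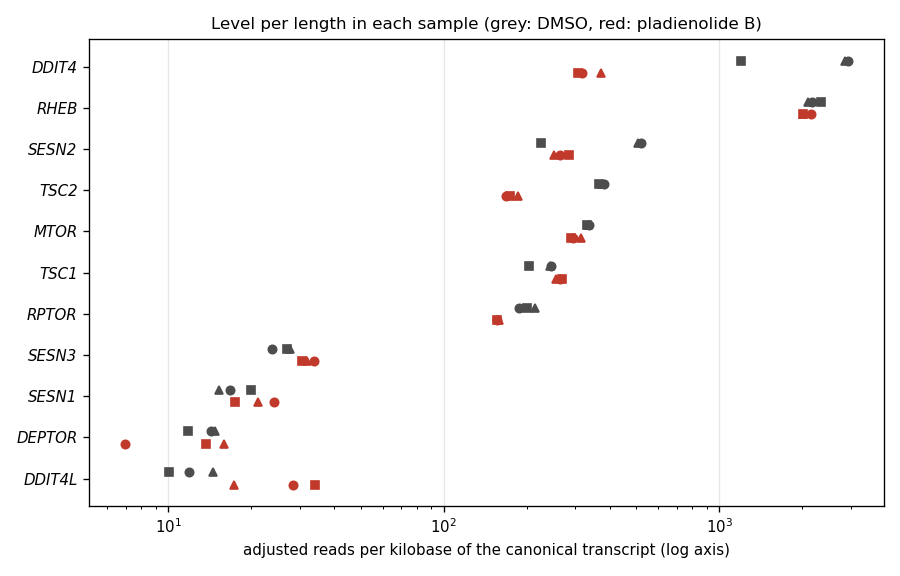
Adjusted reads per kilobase of the canonical transcript (log axis) of the 10 genes and DDIT4L in each sample, ordered by the DMSO mean, with DMSO in grey and pladienolide B in red and symbols for replicates as before. DDIT4 moves from the level of RHEB in DMSO (2328 and 2202) to that of MTOR and SESN2 in pladienolide B (333, 299 and 266), and DDIT4L and the sestrins SESN1 and SESN3 stay under 35 in every sample.

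Around these 10 genes, the 7 lists that make up the mTOR pathway held 89 other genes, of which 88 were tested. Of these, 23 rose and 31 fell, 61.4% in all against the background of 47.6%, and their median log2 difference was -0.03. Only DDIT4L passed the threshold with a difference above 2-fold. It fell under 2-fold, to 0.94, without the second DMSO sample. Without the first or the second treated sample it was also under, at 0.99 and 0.86. Without the second DMSO sample, 24 rose and 29 fell.

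The list of Rag GTPases and Ragulator, which place mTORC1 on the lysosome, also held SLC38A9, FLCN, FNIP1 and FNIP2. Of its 13 genes, 6 rose and 1 fell, 53.8% in all against the background of 47.6%. The median was 0.18, or 0.29 without the second DMSO sample. SLC38A9, a lysosomal arginine sensor, rose by 0.57 (SE 0.062, limma adjusted p = 1.2e-06) and FLCN, the GTPase-activating protein for RRAGC and RRAGD, by 0.44 (SE 0.079, limma adjusted p = 2.0e-04), whereas RRAGA fell by 0.32 (SE 0.051, limma adjusted p = 7.8e-05). GATOR, KICSTOR and the amino acid sensors, a list that includes the sestrin partner GATOR2, had 3 of 16 genes higher and 5 lower. That was 50.0% called, against the background of 47.6%, and the median was 0.01. Without the second DMSO sample 3 were higher and 3 lower, with a median of 0.03. None of the genes named next belongs to GATOR2. KICS2 of KICSTOR rose by 0.67 and NPRL3 of GATOR1 by 0.24, while BMT2, the S-adenosylmethionine sensor also called SAMTOR, fell by 0.44.

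Of the PI3K and AKT genes upstream, 2 of 16 rose and 9 fell, with a median of -0.15. That was 12.5% higher and 56.2% lower, beside the background of 22.4% higher and 25.2% lower. INSR, the insulin receptor, rose by 0.37 (SE 0.070, limma adjusted p = 3.3e-04) and PIK3CA, a catalytic subunit of PI3K, by 0.24, whereas AKT2 fell by 0.41 (SE 0.056, limma adjusted p = 1.5e-05) and the lipid phosphatase INPP4B by 0.31. Of the AMPK and LKB1 genes, which act on TSC2 and RPTOR when energy is short, 2 of 10 rose and 4 fell. The 2 were PRKAB1 (0.45) and CAB39 (0.32), and PRKAA2 fell by 0.30. STK11, which encodes LKB1, fell by 0.18 (limma adjusted p = 0.012), but was past the threshold neither without the third DMSO nor without the second treated sample (limma adjusted p = 0.06 each), and without the latter only 3 genes of this list were called. This count was also 3 after centring on the median.

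Of 21 substrates and effectors of mTORC1, 5 rose and 7 fell, with a median of -0.05. That was 57.1% called, against the background of 47.6%. Without the second DMSO sample 6 rose and 9 fell, with a median of -0.09. GRB10, an adaptor stabilised by mTORC1 that feeds back on the insulin receptor, rose by 0.77 (SE 0.19, limma adjusted p = 0.0025) and LPIN1, a phosphatidate phosphatase, by 0.68 (SE 0.067, limma adjusted p = 3.5e-07). SREBF1, a regulator of lipid synthesis, fell by 0.57 (SE 0.061, limma adjusted p = 9.5e-07). TFEB, a regulator of lysosomal genes, had 125, 95.8 and 125 adjusted reads in DMSO and 74.2, 92.7 and 89.2 in pladienolide B and fell by 0.42 (limma adjusted p = 0.038). It was past the threshold in 5 of the 14 alternatives of scaling, filtering, model and omission of a sample, and not without the first or the third DMSO sample or the first or the third treated sample, with log2 differences between -0.33 and -0.46.

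**Figure D3:**
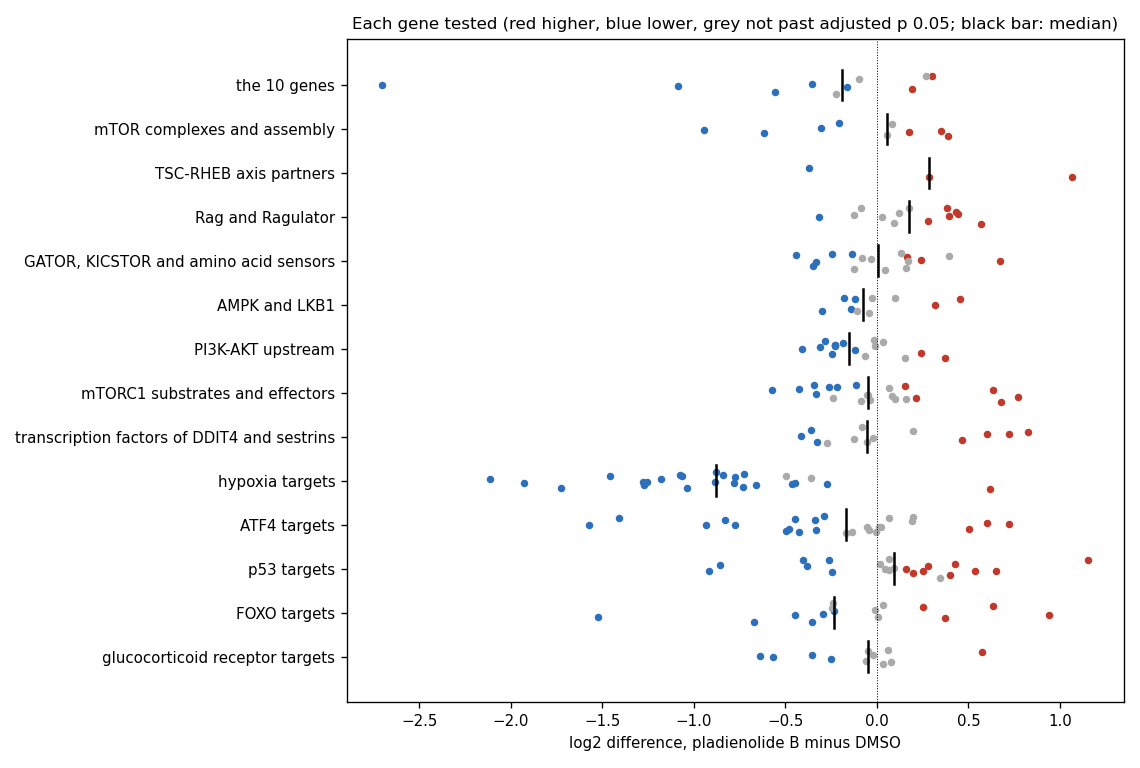
Log2 difference (pladienolide B minus DMSO, horizontal axis) of each gene tested among the 10 genes and in each list, in red where higher, blue where lower and grey where limma's adjusted p was not under 0.05, with the median as a black bar. DDIT4 at -2.70 lies left of every other gene shown, and the hypoxia targets are the list whose median lies furthest from 0, at -0.88.

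The genes that encode transcription factors known to act on DDIT4 and the sestrins rose in 4 of 13 cases and fell in 3. That was 53.8% called, against the background of 47.6%, and the median was -0.06. Without the second DMSO sample 4 rose and 4 fell, with a median of -0.08. HIF1A mRNA was higher, with 3770, 5462 and 3499 adjusted reads in DMSO and 7553, 7469 and 7099 in pladienolide B, a rise of 0.82 (SE 0.10, limma adjusted p = 6.3e-06). The second DMSO sample, the lowest in DDIT4, was the highest DMSO sample in HIF1A. EPAS1, which encodes HIF-2α, rose by 0.72 (SE 0.14, limma adjusted p = 4.8e-04) and DDIT3, the stress factor CHOP, by 0.60 (SE 0.13, limma adjusted p = 8.1e-04). DDIT3 had 282 adjusted reads in the second DMSO sample against 419 and 444 in the others, and its rise was 0.40 without that sample. FOXO3 fell by 0.41 (SE 0.091, limma adjusted p = 0.0012) and ATF4 by 0.36 (SE 0.061, limma adjusted p = 1.4e-04).

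Known hypoxia targets were lower in pladienolide B, in the samples in which HIF1A and EPAS1 mRNA were higher. DDIT4 was not counted in this list. Of the 25 tested, 22 fell and 1 rose, with a median of -0.88, beside the background of 25.2% lower and 22.4% higher, and the counts were the same without the second DMSO sample. HK2, a hexokinase, had 3087, 2200 and 3096 adjusted reads in DMSO and 578, 650 and 685 in pladienolide B and fell by 2.12 (SE 0.10, limma adjusted p = 6.9e-11). PFKFB4, which makes the glycolytic regulator fructose-2,6-bisphosphate, fell by 1.93 (SE 0.092, limma adjusted p = 8.0e-11). CA12, a carbonic anhydrase, was the gene that rose, by 0.62 (SE 0.13, limma adjusted p = 0.0011). The list's median from the gene mean was 0.50, 0.33 and 0.53 in DMSO and -0.48, -0.49 and -0.41 in pladienolide B, so all DMSO samples were above all treated ones.

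Known ATF4 targets were more often lower than higher in pladienolide B. Of the 25 tested, 3 rose and 12 fell, beside the background of 22.4% higher and 25.2% lower. The median was -0.17. Without the second DMSO sample 3 rose and 16 fell, with a median of -0.36. CHAC1, which degrades glutathione, had 828, 231 and 711 adjusted reads in DMSO and 134, 174 and 220 in pladienolide B and fell by 1.57 (SE 0.31, limma adjusted p = 5.1e-04), or by 2.15 without the second DMSO sample. ALDH1L2, a mitochondrial folate enzyme, fell by 1.41 (SE 0.13, limma adjusted p = 1.8e-07). PPP1R15A, which encodes the phosphatase subunit GADD34, rose by 0.72 (SE 0.081, limma adjusted p = 1.6e-06). In the second DMSO sample 24 of the 25 were below both other DMSO samples, as were SESN2 and DDIT4, while 35.7% of all genes tested were. The list's median from the gene mean was 0.26, -0.25 and 0.29 in DMSO and -0.09, -0.10 and -0.14 in pladienolide B. The order of the samples was thus that of SESN2 insofar as the second DMSO sample was lowest and the other DMSO samples highest.

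**Figure D4:**
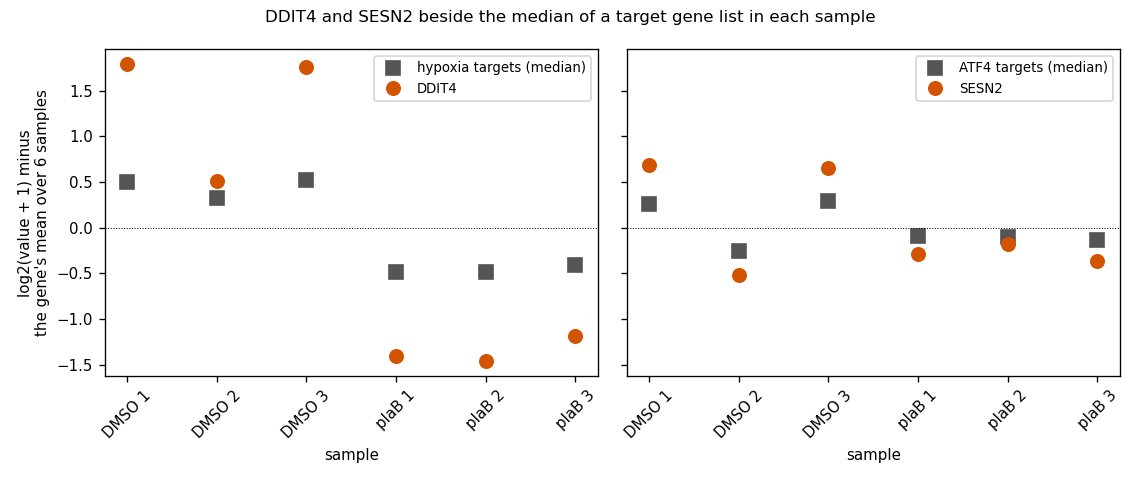
Left, DDIT4 and the median of the hypoxia targets, and right, SESN2 and the median of the ATF4 targets, as log2(adjusted reads + 1) minus the mean of each gene over the 6 samples (vertical axis) in each sample (horizontal axis; plaB, pladienolide B). On the left all DMSO points lie above all treated points, whereas on the right the second DMSO sample (-0.25 for the list) lies lowest.

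Patterns over the 6 samples were compared by the root mean square difference of centred log2 values. Those nearest to DDIT4 were HK2 (0.40), FOS (0.46), LOC105377449 (0.47), PFKFB4 (0.49) and EGR1 (0.50). The values were not scaled, so this distance depends on the size of a fall as well as on its shape. LOC105377449 had only 4.18 to 25.7 adjusted reads. In the second DMSO sample FOS had 372 adjusted reads, against 401 and 447 in the others, and EGR1 had 1607 against 2002 and 2159, so this sample was lowest in both but by less than in DDIT4. Closest to SESN2 were SLC7A5 (0.13), SLC7A11 (0.14) and ZNF529-AS1 (0.15). ZNF529-AS1 had only 26.3 to 63.7 adjusted reads and was not past the threshold (limma adjusted p = 0.25). SLC7A11 had 2685, 1053 and 2733 in DMSO and 1220, 1137 and 1108 in pladienolide B, with the second DMSO sample lowest as in SESN2. SESN3 was followed most closely by THRIL, PRXL2A and LOC100507002, each at 0.03. Since SESN3 itself differed by only 0.30, any gene with a similar small rise lies near it. LOC100507002 had only 29.1 to 40.6 adjusted reads and was not past the threshold (limma adjusted p = 0.31).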

How the data were processed

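RNA sequencing of OVCAR8 cells was analysed from the deposited gene table. Per the labels and methods, reads were aligned with HISAT2 and counted with HTSeq 0.12.4. The methods name hg38 and the submitters' processing notes name hg19; positions of 99.8% of 35926 symbols overlapped GRCh38.p14, so coordinates are given on GRCh38. The sample columns that the authors deposited hold a signal, reads adjusted to a common library size as edgeR does (common dispersion 0.0027). Inverting this gave whole reads (within 0.02) for 100% of 96432 values of 10 or more. The deposited columns of log2 fold change, p-value and q-value were not used. limma 3.58.1 (R 4.3.3) was fitted to log2(value + 1) with a variance trend, two-sided, with Benjamini-Hochberg adjustment. It covered the 16178 genes that passed the rule of filterByExpr in edgeR 4.0.16, applied to the adjusted reads (minimum 10 in 3 samples, total of 15). edgeR and DESeq2 1.42.0 on the recovered reads were alternatives. Tests were tried on simulated data. The 10 genes and the lists were chosen with earlier results of these data known. Named genes are the 10, the 2 largest rises and 2 largest falls called in each list, DDIT4L, TBC1D7, MLST8, AKT1S1, and the genes closest in pattern to DDIT4, SESN2 and SESN3; 1 gene that this rule names is not reported here. Counts per gene do not separate isoforms or unspliced RNA. Precision is limited by 3 samples per group.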

Additional observations from a re-analysis of the deposited data

How the results depend on the processing

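Over the 14 alternatives, the number of genes called, 7695 in the main analysis, lay between 6381 and 7836, with 6568 to 7836 when one sample was left out, and the list genes called, 127, between 107 and 133. Of the 10 genes, 7 were called in the main analysis, 4 without a variance trend and 4 to 6 when one sample was left out (4 without the first treated sample). All 140 values of the 10 genes moved by less than the spread between replicates, but this is a weak check. A change of filter, variance trend or block leaves a log2 difference as it is, and the spread includes the second DMSO sample. SESN2 thus counted as unmoved (spread 0.49) although it went from -0.55 to -0.95 without that sample. Of 825 values of other named genes, 792 kept direction and side of the threshold, 31 lost the call, 2 gained it and 0 reversed; SLC7A5 and TFEB lost it most often. Without a variance trend, 8 of the ATF4 targets were called instead of 15. Centring on the median of all genes moved the share of called genes that were higher from 47.0% to 55.9%. The causes were not tested. Over all genes tested, same-numbered samples did not deviate together from their group means, with correlations of -0.018, -0.018 and 0.003. Those of unlike-numbered samples lay between -0.035 and 0.0485. These correlations cannot show whether samples were paired in the laboratory. With a replicate block, 7349 genes, 7 of the 10 genes and 121 list genes were called. DEPTOR, near 30 adjusted reads, and SESN1, near 100, were measured with few reads, and their differences of -0.22 (SE 0.29) and 0.27 (SE 0.16) were not detectable at this depth and number of samples.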

Other observations

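Other target lists of the factors that act on DDIT4 and the sestrins were measured in the same samples. Of 21 p53 targets tested, 9 rose and 6 fell, 71.4% in all against the background of 47.6%, with a median log2 difference of 0.09. CDKN1A, the cell cycle inhibitor p21, had 987, 845 and 866 adjusted reads in DMSO and 2054, 2087 and 1865 in pladienolide B and rose by 1.16 (SE 0.065, limma adjusted p = 4.5e-10). PLK3, a stress kinase, rose by 0.65, whereas DDB2, a DNA damage sensor, fell by 0.92 (SE 0.095, limma adjusted p = 6.6e-07) and BBC3, the apoptosis gene PUMA, by 0.85.

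Of 15 FOXO targets, 4 rose and 6 fell, 66.7% in all against the background of 47.6%, with a median of -0.23. FBXO32, a ubiquitin ligase subunit of muscle atrophy, rose by 0.94 (SE 0.11, limma adjusted p = 2.2e-06) and BCL2L11, the apoptosis gene BIM, by 0.63. CCNG2, an atypical cyclin, had 1294, 956 and 1220 adjusted reads in DMSO and 413, 380 and 405 in pladienolide B and fell by 1.52 (SE 0.091, limma adjusted p = 1.1e-09). PIK3IP1, an inhibitor of PI3K, fell by 0.67 (limma adjusted p = 0.011), but was not past the threshold without the third DMSO sample (limma adjusted p = 0.054). Without the second DMSO sample 4 rose and 8 fell.

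Of 11 glucocorticoid receptor targets, 1 rose and 4 fell, 45.5% in all against the background of 47.6%. The median was -0.05, or -0.09 without the second DMSO sample. ERRFI1, an inhibitor of EGFR, rose by 0.57 (SE 0.054, limma adjusted p = 2.0e-07), and KLF9, a transcription factor, and TSC22D3, the leucine zipper protein GILZ, fell by 0.64 and 0.57.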
